A study of Mus musculus with 8 samples.

Results

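The heat shock proteins and endoplasmic reticulum (ER) chaperones were followed in the dentate gyrus of mice with and without the calcium channel Cav3.1. Their members were 37 genes listed by symbol, and a probe was taken for a gene when its annotated symbol equalled the member's. Where a gene had several probes, the probe with the brightest mean spot over the 8 arrays was kept. A probe was found for 34 of the 37 genes, out of 19321 genes with a symbol on the array, of which 17542 had a tested probe. All 34 were detected on all 8 arrays and all 34 were tested. Hspa1b, Hsp90ab1 and Hsf1 matched no symbol, and their RNA was not analysed here. Of the cytosolic members 12 of 14 were measured, of the ER members 18 of 18, of the mitochondrial members 3 of 3, and of the heat shock factors 1 of 2. Dnajc3 alone had 2 probes. The kept probe differed by -0.11 between genotypes and the dimmer probe by -0.01, on the log2 scale used throughout.

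The samples were 4 wild-type (WT) arrays and 4 Cav3.1 KO arrays. Both groups were male C57BL/6J mice of 8 to 12 weeks. The labels name no treatment, and the tissue was the dorsal dentate gyrus, dissected after decapitation and frozen. Cav3.1 is the pore-forming subunit of a low-voltage-activated (T-type) calcium channel, encoded by Cacna1g. The labels do not state how the KO allele was made or whether it is lost from all cells, and they speak of brain slices without tying each array to its own mouse. The p-values therefore reflect only the spread among these 8 arrays, some of which may be technical.

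Heat shock proteins bind unfolded proteins and, by cycles of ATP use, let them fold, keep them soluble or hand them to degradation. In the cytosol many of them are switched on by heat shock factors when unfolded proteins accumulate. In the ER, the store from which neurons release calcium, a separate set folds secreted and membrane proteins, several of its members bind calcium themselves, and its genes are raised by the factors ATF6 and XBP1 in the unfolded protein response. Neurons of the hippocampus hold high levels of the constitutive cytosolic chaperones.

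The arms are known to differ in the promoter words through which they are switched on, and the promoters of a few members are shown so that those words can be seen. Each is the stretch of 150 bases directly before the gene's start, from RefSeq on GRCm38.p6, written 5′ to 3′ on the gene's own strand, with the matched word in capitals. Hspa5, the central Hsp70 of the ER, lies after chr2:34771940-34772089 on the plus strand. Pdia6, an ER disulfide isomerase, lies after chr12:17266439-17266588 on the plus strand. Creld2, an ER stress-inducible protein, lies after chr15:88819496-88819645 on the plus strand. Sdf2l1, an ER co-chaperone, has the window chr16:17132384-17132533 on the minus strand. The capitals in the first 3 sequences mark the ER stress element, CCAAT followed by 9 unspecified bases and CCACG, which in Creld2 reads on the opposite strand.
Hspa5: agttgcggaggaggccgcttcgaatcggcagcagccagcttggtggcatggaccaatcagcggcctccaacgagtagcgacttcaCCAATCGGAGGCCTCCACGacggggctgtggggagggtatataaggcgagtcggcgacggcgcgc
Pdia6: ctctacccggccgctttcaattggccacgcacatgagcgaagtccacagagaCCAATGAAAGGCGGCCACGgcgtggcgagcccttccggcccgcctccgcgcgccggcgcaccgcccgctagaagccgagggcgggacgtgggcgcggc
Creld2: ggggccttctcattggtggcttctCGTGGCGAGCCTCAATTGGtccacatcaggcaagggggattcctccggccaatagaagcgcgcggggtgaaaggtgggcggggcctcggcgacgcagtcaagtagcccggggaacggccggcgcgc
Sdf2l1: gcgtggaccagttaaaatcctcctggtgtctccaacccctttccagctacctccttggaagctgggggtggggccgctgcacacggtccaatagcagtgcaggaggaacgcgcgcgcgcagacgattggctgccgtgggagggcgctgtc

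The cytosolic and mitochondrial promoters below carry the heat shock word, searched as GAANNTTC or TTCNNGAA, a pair of neighbouring units of the heat shock element. Hspb1, the small heat shock protein Hsp27, has the window chr5:135887769-135887918 on the plus strand with 2 words. Hspe1, the mitochondrial Hsp10, has the window chr1:55087998-55088147 on the plus strand with 3 overlapping words, shown as 1 run of capitals.
Hspb1: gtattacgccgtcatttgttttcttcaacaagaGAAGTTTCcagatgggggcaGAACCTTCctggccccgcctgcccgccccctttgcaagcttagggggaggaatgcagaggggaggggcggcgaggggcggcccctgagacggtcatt
Hspe1: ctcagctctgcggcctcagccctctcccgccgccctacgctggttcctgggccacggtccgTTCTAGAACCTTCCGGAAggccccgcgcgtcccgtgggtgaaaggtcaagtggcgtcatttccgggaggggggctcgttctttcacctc

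Both words were searched on both strands in the 250 bases before the start of every gene in the RefSeq table, which held 30 of the members. The ER stress element occurred before 8 of the 16 ER members with an entry, namely Calr, Canx, Creld2, Dnajc3, Hsp90b1, Hspa5, Pdia6 and Syvn1. It occurred before none of the 11 cytosolic members with an entry, among which Hspa1b was counted. Over all promoters in the table, 37 of 32851 held it, a share of 0.113%. The heat shock word occurred before 6 of the 11 cytosolic members, before 2 of the 2 mitochondrial members and before 0 of the 16 ER members, against 14.5% of all genes in the table. Hspd1 and Hspe1, which encode the mitochondrial Hsp60 and its Hsp10 lid, lie head to head, and their windows shared 215 bases and the same 3 words. The matches are a description of letters and not of factor binding.

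Cacna1g, the targeted gene, gave log2 intensities of 6.43, 6.61, 6.53 and 6.61 on WT1 to WT4 and of 6.55, 6.43, 6.39 and 6.48 on KO1 to KO4. The groups overlapped and differed by -0.08 (standard error, SE, 0.0508), with an exact two-sided permutation p of 0.171. The position of this probe relative to the deleted part is not given, so it does not check the genotypes. The 10 granule neuron markers, Prox1 and C1ql2 among them, were detected on all 8 arrays. Prox1 was dim, with mean spots of 68.5 and 70.2 intensity units in WT and KO. Median probe spots ranged from 80.9 to 94.3 intensity units and detected probes from 85.4% to 93.0% of each array. A probe counted as detected above the 95th percentile of the array's blank spots. The arrays fell into 2 sets by the slope between scan gains 1 and 3 written in their headers, with a steeper slope on WT1, WT2, WT4 and KO1 and a shallower one on WT3, KO2, KO3 and KO4, and WT3 and KO4 carried the 2 highest chip numbers. Genotype is thus uneven over the gain sets, and a comparison within a set has a single KO array or a single WT array. WT2 stood apart in several members. Without it the difference turned sign for 5 of the 34 members (Hspa8, Dnaja1, Hspd1, Dnajb9 and Pdia3) and moved by over 1.5 times with the same sign for 18 more.

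None of the 34 members passed the test between Cav3.1 KO and WT (limma, Benjamini-Hochberg adjusted p under 0.05 over all probes). Among the 21150 probes tested, 61 passed, 0.288%, with 0.199% higher and 0.0898% lower in Cav3.1 KO. At an unadjusted p under 0.05, 5 members were lower in Cav3.1 KO, namely Sdf2l1, Pdia6, Manf and Creld2 of the ER and Hspa2 of the cytosol, and none was higher, against 8.1% of all probes in either direction, 4.34% lower and 3.76% higher. Their difference lay below 0 for 24 of the 34 members, against 50.7% of all probes, with a median of -0.03 against -0.00078. Of the ER members 15 of 18 lay below 0, with a median of -0.11, and of the cytosolic members 6 of 12, with a median of 0.02. Only Sdf2l1 separated the groups, with every KO array below every WT array, as 4.95% of all probes did in either direction, 2.53% lower and 2.42% higher. In bulk tissue, fewer cells of a type and less RNA per cell cannot be told apart.

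**Figure D1:**
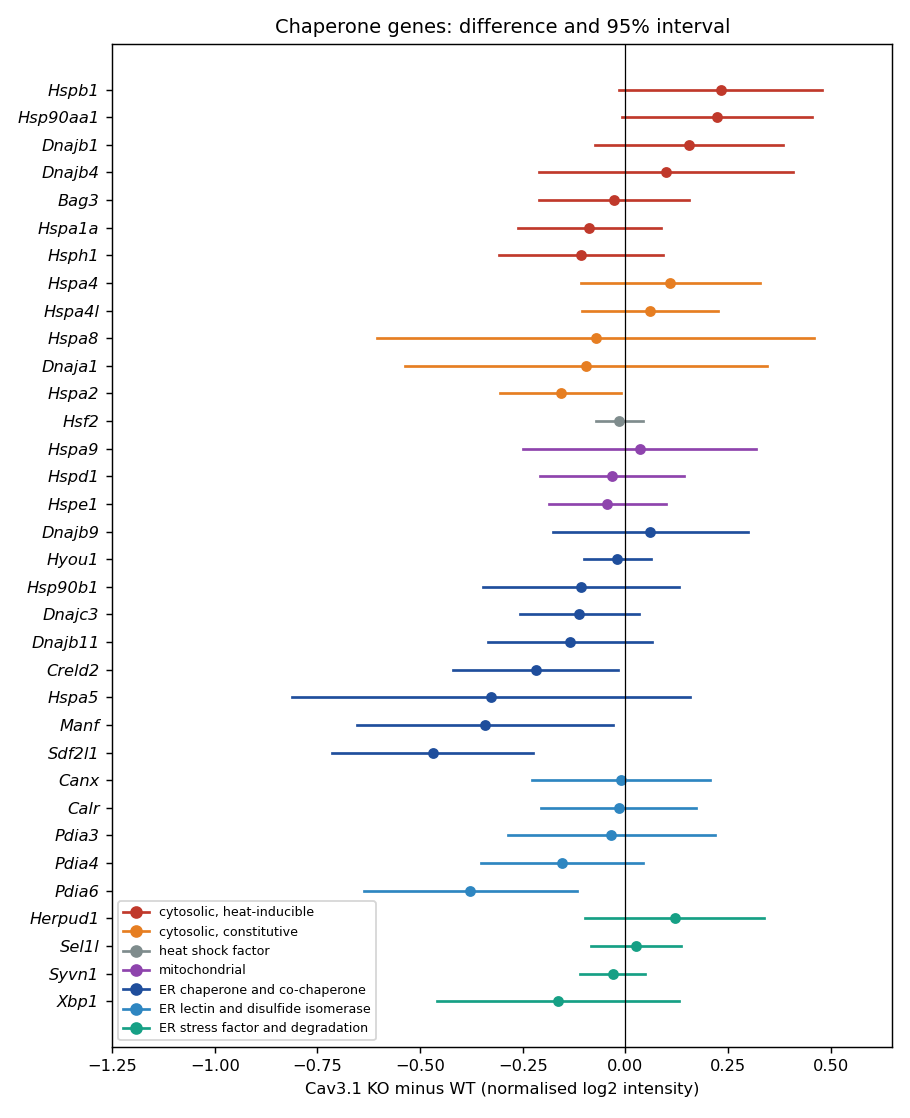
Difference in log2 intensity, Cav3.1 KO minus WT, for the 34 measured members (points) with 95% intervals (bars), coloured by role. Most ER members lie left of 0, Sdf2l1 farthest at -0.47 and Pdia6 next at -0.38, while cytosolic members lie on both sides; no member passed the adjusted threshold.

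The chaperones and co-chaperones of the ER lumen held 3 of the 4 largest differences among the members, those of Sdf2l1, Manf and Hspa5. Of these 9 genes 8 lay below 0, with a median of -0.14. Sdf2l1, a co-chaperone that works with the ER Hsp70 and its DnaJ partners, read 7.94, 8.18, 8.11 and 7.97 on WT1 to WT4 and 7.59, 7.87, 7.50 and 7.36 on KO1 to KO4. The KO arrays all lay below the WT arrays, KO2 closest to them and KO4 lowest. The difference was -0.47 (SE 0.106, n = 4 in each group), or 0.722 of the WT level, with a 95% interval of -0.714 to -0.225 and a limma adjusted p of 0.19. Scaled to the 75th percentile in place of quantile normalisation, Sdf2l1 passed the test, at -0.47 with a limma adjusted p of 0.0274. Within the arrays of steeper gain slope it was -0.438, within those of shallower slope -0.531, and with the gain set as a block -0.485. Among the 6 arrays of lower chip number it was -0.378, and between WT3 and KO4 it was -0.744. On blank-subtracted intensities, where low signals are not compressed, it was -0.62.

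Manf, a secreted ER protein that binds the ER Hsp70 and protects neurons, read 9.92, 10.18, 9.97 and 9.92 in WT and 9.59, 10.02, 9.67 and 9.33 in KO. KO2 lay among the WT arrays and the other 3 KO arrays below them. The difference was -0.34 (SE 0.136), with a 95% interval of -0.655 to -0.0303 and a limma adjusted p of 0.562. It was -0.417 within the arrays of steeper gain slope and -0.292 within those of shallower slope. Hspa5, also called BiP or Grp78, is the main Hsp70 of the ER and the sensor-binding chaperone of the unfolded protein response. It read 11.23, 11.86, 11.23 and 11.19 in WT and 10.68, 11.54, 11.10 and 10.89 in KO. WT2 and KO2 stood above the rest of their groups, and the groups overlapped. The difference was -0.33 (SE 0.21; limma adjusted p = 0.831; exact two-sided permutation p = 0.257), and without WT2 it was -0.167. Within the arrays of steeper gain slope it was -0.748 and within those of shallower slope -0.0536.

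Hsp90b1, the ER Hsp90 known as Grp94, read 10.87, 11.26, 10.91 and 10.91 in WT and 11.04, 10.97, 10.69 and 10.83 in KO. WT2 was the highest array and KO1 the next, so the groups overlapped. The difference was -0.11 (SE 0.104; limma adjusted p = 0.941; exact two-sided permutation p = 0.457), and without WT2 it was -0.0183. Creld2, whose protein is secreted on ER stress, had a mean of 7.60 ± 0.113 in WT and 7.38 ± 0.162 in KO (SD, n = 4 each), a difference of -0.22 with a limma adjusted p of 0.569. The DnaJ co-chaperone Dnajb11 was 8.78 ± 0.182 in WT and 8.64 ± 0.0716 in KO, a difference of -0.14 that was -0.0481 without WT2. Dnajc3, which also acts as a brake on the eIF2α kinase PERK, was 8.40 ± 0.0235 and 8.29 ± 0.136. Dnajb9, a DnaJ protein that restrains the stress sensor IRE1, was the only chaperone of this role above 0, at 7.42 ± 0.144 in WT and 7.48 ± 0.187 in KO, and without WT2 its difference was -0.0065. Hyou1, the large Hsp110-type nucleotide exchange factor of the ER, was at 6.06 ± 0.0358 and 6.04 ± 0.057. Its probe was close to background, with mean spots of 69.7 and 72.7 intensity units in WT and KO where blank spots averaged 53.0 to 63.4 over the arrays, so a difference in Hyou1 would be compressed.

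The lectins and disulfide isomerases of the ER all lay below 0, with a median of only -0.03. Pdia6, an isomerase that also acts on IRE1, read 10.13, 10.50, 10.26 and 10.28 in WT and 9.85, 10.21, 9.86 and 9.74 in KO. KO2 lay above WT1, and the other 3 KO arrays lay below all WT arrays. The difference was -0.38 (SE 0.113), or 0.77 of the WT level, with a 95% interval of -0.637 to -0.119 and a limma adjusted p of 0.351. It was -0.458 within the arrays of steeper gain slope, -0.319 within those of shallower slope, and -0.307 without WT2. Pdia4, an isomerase with an extra thioredoxin domain, read 7.27, 7.45, 7.25 and 7.27 in WT and 7.39, 7.19, 7.04 and 7.02 in KO. WT2 was the highest array, KO1 lay above the other 3 WT arrays, and KO2, KO3 and KO4 lay below all of WT. The difference was -0.15 (SE 0.0855; limma adjusted p = 0.761), and within the arrays of steeper gain slope, where KO1 is the only KO array, it was 0.0552. In the calnexin cycle no difference exceeded its SE. Calr, the calcium-binding lectin calreticulin, was 7.59 ± 0.131 in WT and 7.57 ± 0.13 in KO. Its membrane-bound relative Canx was 9.76 ± 0.0448 and 9.75 ± 0.209, and their partner isomerase Pdia3 was 9.96 ± 0.232 and 9.93 ± 0.0946, with a difference of -0.03 that turned to 0.0767 without WT2.

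The ER stress factor and the degradation genes lay on both sides of 0, 2 below and 2 above. Xbp1, whose mRNA is spliced by IRE1 to make the active factor, read 9.51, 9.91, 9.67 and 9.45 in WT and 9.44, 9.75, 9.45 and 9.24 in KO. KO4 was the lowest array and WT2 the highest, and the groups overlapped at a difference of -0.16 (SE 0.128; limma adjusted p = 0.896; exact two-sided permutation p = 0.371). Without WT2 the difference was -0.0707. The probe does not tell spliced from unspliced Xbp1. Herpud1, a scaffold of the degradation complex and a target of the unfolded protein response, read 7.93, 8.22, 7.90 and 7.94 in WT and 8.00, 8.33, 8.13 and 8.02 in KO. Only WT2 among the WT arrays reached the KO arrays, where KO2 was highest. The difference was 0.12 (SE 0.0944; limma adjusted p = 0.9), opposite in sign to that of most ER chaperones, and without WT2 it was 0.195. Syvn1, the ubiquitin ligase HRD1, was 6.81 ± 0.0557 in WT and 6.78 ± 0.0314 in KO, and its partner Sel1l 6.37 ± 0.0527 and 6.40 ± 0.0857.

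**Figure D2:**
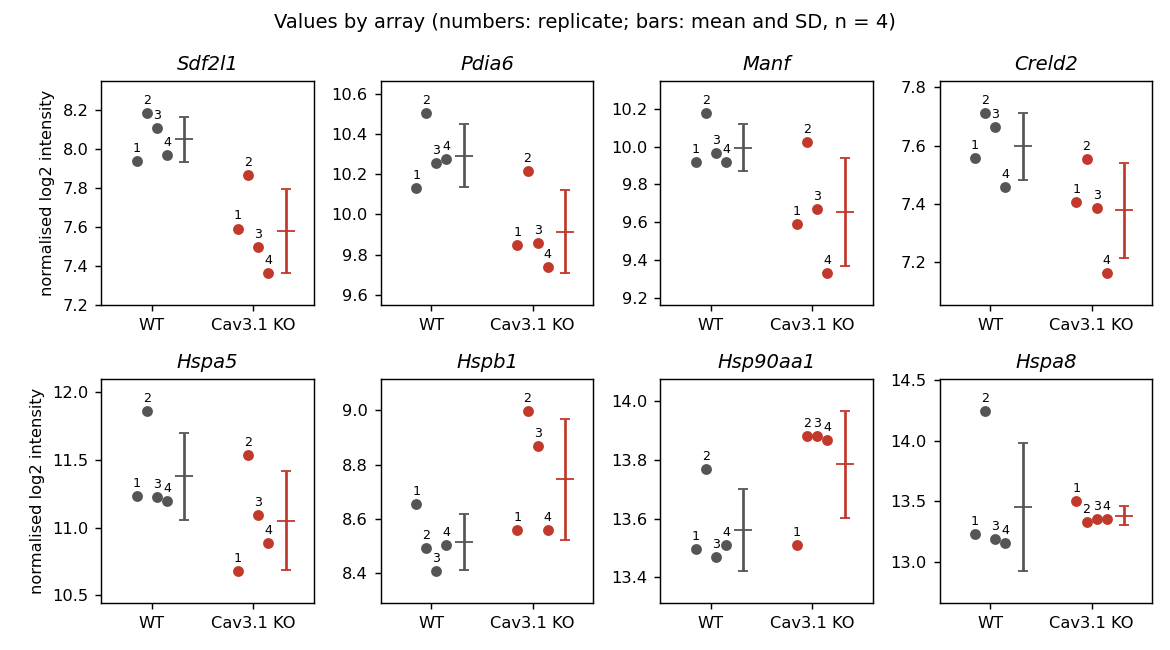
Log2 intensity of 8 members on each WT and Cav3.1 KO array (points), with the group mean and SD (bars). For Sdf2l1 the KO arrays, from 7.36 to 7.87, lie below the WT arrays, from 7.94 to 8.18; for Pdia6 and Manf KO2 overlaps WT, and for Hspa8 a single array, WT2 at 14.25, stands above the others.

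The heat-inducible cytosolic members lay on both sides of 0, 3 of 7 below and 4 above, with a median of 0.10. Hspa1a, the stress-inducible Hsp70, read 7.31, 7.55, 7.35 and 7.38 in WT and 7.12, 7.41, 7.34 and 7.38 in KO. WT2 was highest, KO1 was lowest, and the other 6 arrays lay between 7.31 and 7.41. The difference was -0.09 (SE 0.0757; limma adjusted p = 0.926; exact two-sided permutation p = 0.457), and without WT2 it was -0.036. The promoter windows of Hspa1a and its near copy Hspa1b were identical at 247 of 250 positions. Promoter letters do not show which RNA a probe reads, and whether the Hspa1a probe also reads Hspa1b RNA was not examined. Hspb1 (Hsp27), which shields actin and unfolded proteins, read 8.65, 8.49, 8.41 and 8.50 in WT and 8.56, 8.998, 8.87 and 8.56 in KO. KO2 and KO3 stood above all others, and KO1 and KO4 lay within WT. The difference was 0.23 (SE 0.107; limma adjusted p = 0.66), and without KO2 and KO3 it was 0.044.

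Hsp90aa1, the inducible cytosolic Hsp90, read 13.50, 13.77, 13.47 and 13.51 in WT and 13.51, 13.88, 13.88 and 13.87 in KO. KO2, KO3 and KO4 were the highest arrays, WT2 followed, and KO1 lay with the other WT arrays. The difference was 0.22 (SE 0.1; limma adjusted p = 0.645; exact two-sided permutation p = 0.0857). It turned sign between the gain sets, at -0.081 within the steeper slope and 0.406 within the shallower. Dnajb1, the Hsp40 that feeds clients to Hsp70, was 9.29 ± 0.18 in WT and 9.45 ± 0.139 in KO, with differences of -0.0063 within the steeper slope and 0.378 within the shallower. Hsph1, the exchange factor Hsp110, was 8.32 ± 0.135 and 8.21 ± 0.142, a difference of -0.11 that was -0.0558 without WT2. Bag3, the co-chaperone of selective autophagy, was 6.65 ± 0.132 and 6.62 ± 0.122, and the Hsp40 Dnajb4 9.27 ± 0.297 and 9.37 ± 0.0872.

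Among the constitutive cytosolic members 3 of 5 lay below 0, with a median of -0.07. Hspa8 (Hsc70), the abundant housekeeping Hsp70 that also uncoats clathrin vesicles, read 13.22, 14.25, 13.19 and 13.15 in WT and 13.50, 13.32, 13.35 and 13.35 in KO. WT2 stood about 1 log2 unit above every other WT array, and all 4 KO arrays lay above the remaining 3 WT arrays. The difference was -0.07 (SE 0.231; limma adjusted p = 0.995; exact two-sided permutation p = 1), and without WT2 it was 0.19 with a limma adjusted p of 0.196. WT2 was set aside here after its value was seen. Hspa2, an Hsp70 with a special part in spermatogenesis that is also made in brain, read 8.42, 8.57, 8.51 and 8.43 in WT and 8.18, 8.31, 8.33 and 8.48 in KO. KO4 lay within WT and the other 3 KO arrays below it. The difference was -0.16 (SE 0.0642), with a 95% interval of -0.305 to -0.01 and a limma adjusted p of 0.581. Hspa4, an Hsp110-type exchange factor, read 8.46, 8.63, 8.65 and 8.61 in WT and 8.49, 8.57, 8.86 and 8.87 in KO, with KO3 and KO4 above all WT arrays. The groups overlapped at a difference of 0.11 (SE 0.0945; limma adjusted p = 0.927). Its relative Hspa4l was 8.15 ± 0.0886 in WT and 8.21 ± 0.133 in KO. The Hsp40 Dnaja1 varied widely in both groups, from 10.49 to 11.20 in WT and from 10.39 to 11.13 in KO. Its difference of -0.10 was 0.0087 without WT2, -0.517 within the steeper gain slope and 0.0986 within the shallower.

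Hsf2, a heat shock factor active mainly in development, read 6.07, 6.02, 6.08 and 6.07 in WT and 6.07, 6.04, 6.03 and 6.03 in KO, within the WT range, a difference of -0.01 (SE 0.0249; limma adjusted p = 0.98), which turned to 0.0298 under 75th percentile scaling. Its probe was dim, with mean spots of 69.5 and 72.8 intensity units. Of the mitochondrial members 2 lay below 0 and 1 above, none by more than its SE. Hspd1, which folds matrix proteins as the Hsp60 ring, read 11.24, 11.48, 11.18 and 11.10 in WT and 11.18, 11.20, 11.25 and 11.23 in KO. All KO arrays lay within the WT range, at a difference of -0.03 (SE 0.0761; limma adjusted p = 0.989) that was 0.0457 without WT2. Hspe1 read 9.65, 9.42, 9.47 and 9.45 in WT and 9.58, 9.43, 9.44 and 9.37 in KO, overlapping at a difference of -0.04 (SE 0.0622; limma adjusted p = 0.975). Hspa9, the mitochondrial Hsp70 mortalin, was 8.89 ± 0.144 in WT and 8.92 ± 0.244 in KO.

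**Figure D3:**
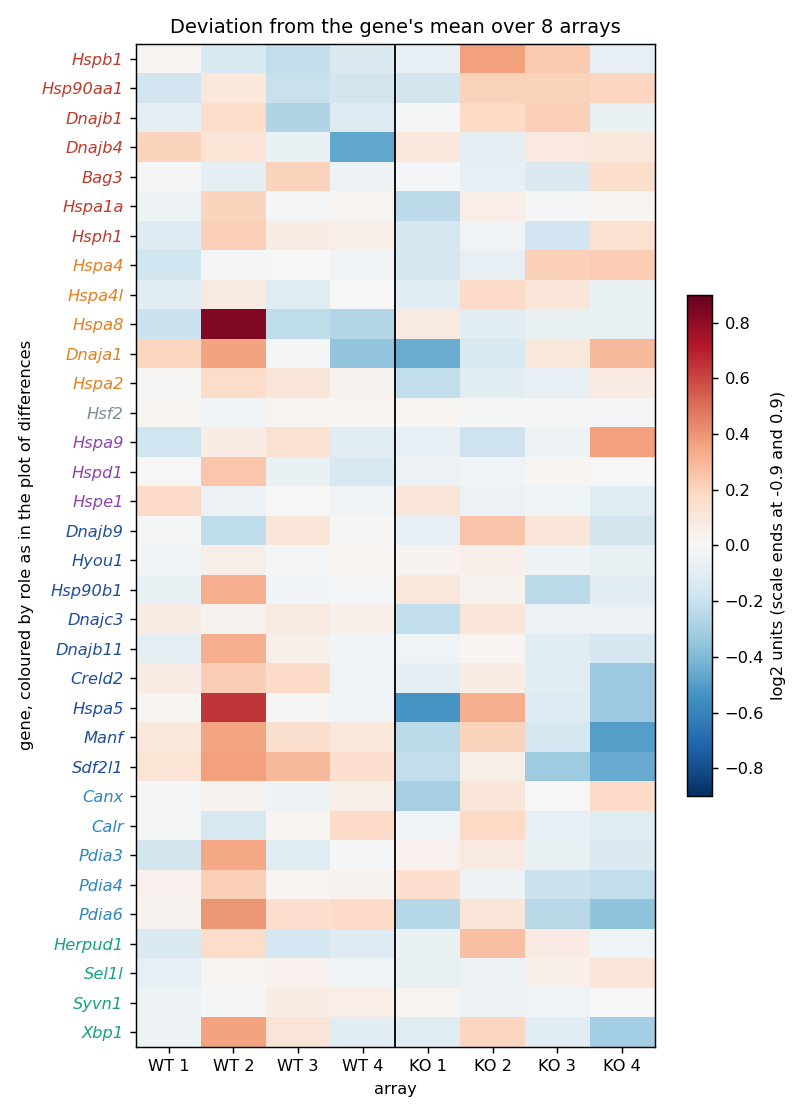
Deviation of each member's log2 intensity from its own mean over the 8 arrays, with arrays in columns and members in rows grouped by role; the colour scale ends at -0.9 and 0.9. WT2 is above the mean in 15 of 18 ER members and KO2 in 15 of 18, and KO4 in 2 of 18.

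The cytosolic and ER members were next set against each other on each array, as the median over each set of the deviation from a gene's own mean. These medians chose no members and were not tested. The ER median was -0.0152, 0.219, 0.0409 and 0.0176 on WT1 to WT4 and -0.0714, 0.0943, -0.0844 and -0.14 on KO1 to KO4. WT2 was highest, KO2 second, and the other 3 KO arrays lowest, so KO2 overlapped WT. The cytosolic median was -0.0648, 0.142, -0.0353 and -0.0846 in WT and -0.129, -0.0511, 0.0973 and 0.0855 in KO. KO3 and KO4 lay above 3 of the WT arrays and KO1 below all of them. The cytosolic median minus the ER median was -0.0762 ± 0.0215 in WT and 0.0512 ± 0.181 in KO (SD, n = 4 each). It was 0.182 on KO3 and 0.226 on KO4, and below 0 on the other 6 arrays, KO1 and KO2 included. The gap above 0 was seen on KO3 and KO4 and not on all KO arrays.

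**Figure D4:**
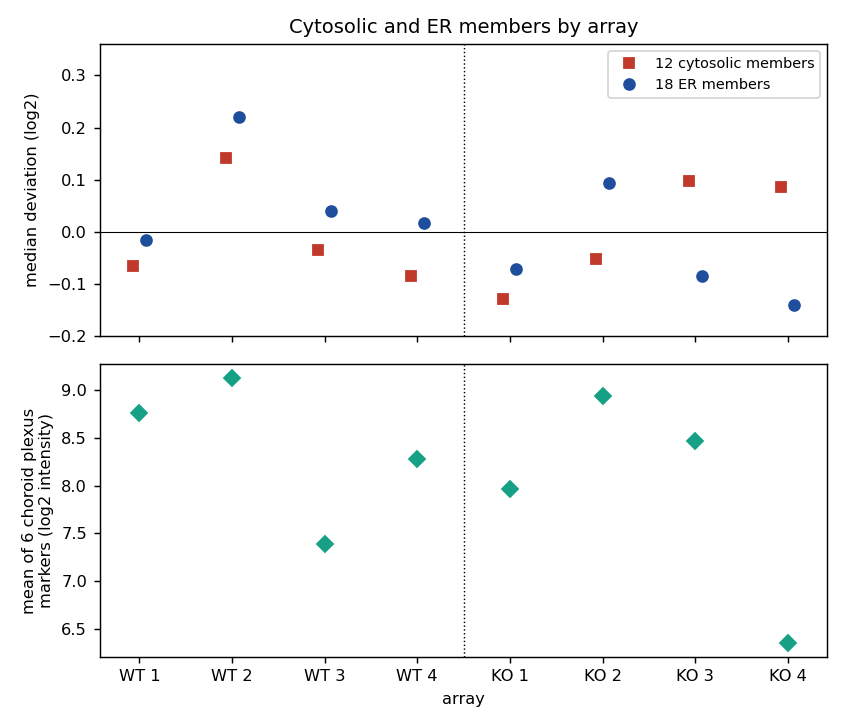
Per-array median deviation of the 12 cytosolic and the 18 ER members from each gene's mean (log2), and the mean log2 intensity of 6 choroid plexus markers, for each WT and Cav3.1 KO array. The ER median is highest on WT2 at 0.219 and lowest on KO4 at -0.14, the arrays with the highest and the lowest choroid plexus mean, 9.13 and 6.35.

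The ER members followed single arrays. WT2 was the highest array for 11 of the 18, or 61.1%, against 16.3% of all probes, and KO4 the lowest for 8, or 44.4%, against 13.9%. Among the 12 cytosolic members WT2 was also the highest array for 5, or 41.7%, while KO4 was the lowest for 0. KO2 lay above a gene's own mean for 9 of the 9 ER chaperones and co-chaperones. Without WT2 the ER count below 0 was again 15 of 18 and the median -0.0578, while the cytosolic count was 4 of 12 and the median 0.11. Without KO2, the KO array in which the ER members were high, the ER median was -0.15, the lowest of those leaving out 1 array. Leaving out a KO array picked for its high values can only be read as a lower bound. Within the arrays of steeper gain slope 13 of 18 ER members lay below 0, with a median of -0.0762, and within those of shallower slope 14, with a median of -0.0809. Among the 6 lower chip numbers the ER median was -0.0947, and between WT3 and KO4 it was -0.168. The cytosolic median changed sign between the gain sets, at -0.0805 and 0.109. Over all 34 members, the sign differed from that of the whole comparison for 14 within the steeper slope and for 8 within the shallower. Of the ER members these were Hsp90b1, Hyou1, Pdia4, Herpud1, Syvn1 and Sel1l in the former and Dnajb9, Canx and Pdia3 in the latter. The 3 members with the widest spread within groups were Hspa8, Hspa5 and Dnaja1, with pooled SDs of 0.379, 0.345 and 0.314, above those of 99.6%, 99.4% and 99.1% of all probes. They are bright, with mean WT spots of 12202, 2822 and 2031 intensity units, where median probe spots ranged from 80.9 to 94.3. Spread is compressed near background, so these shares do not compare probes of like brightness.

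Markers of other cell types moved with some of these values. Choroid plexus, a secretory epithelium, was followed by 6 markers, 5 of them detected on all 8 arrays and all 6 below 0 in the difference. Their mean was 8.76, 9.13, 7.39 and 8.28 on WT1 to WT4 and 7.97, 8.94, 8.47 and 6.35 on KO1 to KO4. It was highest on WT2 and KO2, as the ER median was, and lowest on KO4. Ttr, the defining marker, reached 15.16 on WT2 and 7.49 on KO4. WT3, second lowest in the marker mean at 7.39, had the third highest ER median, so the orders were not the same throughout. KO3 read 8.47 in the marker mean, above WT3 and WT4, but its ER median of -0.0844 lay below all WT arrays. Other marker means shared part of this order. The oligodendrocyte marker mean was highest on KO2, at 10.69, and lowest on KO4, at 10.06. On WT2, where the ER median was highest, it was 10.52, below its values on KO2, WT1 and WT3. The ependyma marker mean was also lowest on KO4, but it was highest on KO3. The part of choroid plexus, oligodendrocyte or ependyma RNA in the ER values was not tested. Of the 10 thalamus and habenula markers 9 were tested, and their mean was 8.06 on KO2 and 8.01 on KO3 and 6.81 to 7.31 on the other arrays. KO2 and KO3 are the arrays on which Hspb1 was high, and the part of this tissue in Hspb1 was not tested. The granule neuron markers averaged 7.24 to 7.33 in WT and 7.09 to 7.22 in KO, with 7 of 10 below 0. They did not move as 1 set. C1ql2 and Trpc6 each differed by -0.57, while Calb1 differed by 0.34. C1ql2 passed the test (limma adjusted p = 0.0065). For C1ql2, Trpc6, Plk5 and Lct every KO array lay below every WT array, as for 2.53% of all probes. For Calb1 every KO array lay above every WT array, as for 2.42% of all probes. The oligodendrocyte markers differed by -0.181, with 7 of 7 below 0, and the microglial markers by -0.125, with 7 of 7 below 0.

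The wider pathway was taken from a list of 84 other gene symbols, of which 75 had a probe and 74 were tested. The list held older and newer symbols of some genes, such as Ero1l and Ero1a, so not every symbol without a probe is an unmeasured gene. None passed the limma test at an adjusted p under 0.05, against 0.288% of all probes. Of the 74 genes 46 lay below 0 and 28 above, with a median of -0.02, against 50.7% of all probes below 0. At an unadjusted p under 0.05, 8 of the 74 were lower and 2 higher, the ER DnaJ protein Dnajc10 and the ER lectin Erlec1. Of all probes 4.34% were lower and 3.76% higher at that threshold. Of 16 other genes of ER folding and the unfolded protein response 12 lay below 0, with a median of -0.07, and of 17 genes of ER-associated degradation 12, with a median of -0.01. Of 32 other cytosolic chaperones 21 lay below 0, with a median of -0.04, and of 7 mitochondrial chaperones and proteases 1, with a median of 0.02. The groups did not overlap for 2 of the 74 genes lower in KO and for 2 higher, against 2.53% and 2.42% of all probes. The 3 genes with the smallest p were Atf6, St13 and Dnajc1. Atf6, a membrane-bound factor that raises ER chaperone genes once cleaved, was 6.56 ± 0.0374 in WT and 6.42 ± 0.0398 in KO, a difference of -0.13 (SE 0.0311; limma adjusted p = 0.206), with every KO array below every WT array. St13, an Hsp70-interacting co-chaperone, differed by -0.16 (SE 0.0454; limma adjusted p = 0.317), and Dnajc1, a DnaJ protein of the ER membrane, by -0.27 (SE 0.0839; limma adjusted p = 0.379). Ern1, which encodes IRE1, was above background on 1 array only and was not tested.

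Set beside the promoters, the 8 ER members whose window held the ER stress element all lay below 0, with a median difference of -0.11. Of the 8 with an entry and no match 5 lay below 0, with a median of -0.09. Only the spelling and spacing given above were searched, so a window without a match may hold the element in another form. The Herpud1 window, counted as without a match, held CCAAT on the opposite strand close to CCACG. Sdf2l1, with the largest difference of all members, was among those without a match in the 250 bases searched. The members with the element included both Pdia6, at -0.38, and Canx, at -0.01. Calr, Canx and Syvn1, all with the element, differed by less than their SE. Over all ER members 15 of 18 lay below 0, among them Manf and Hyou1, which had no promoter entry. A link between the element and the differences was not tested.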

How the data were processed

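Total RNA was amplified, labelled with Cy5 and hybridised to single-colour TORAY chips, per the labels' protocols. The deposited scanner files give a median spot intensity for each spot, not normalised, with marks at 3 scan gains, per the file headers. The authors' value table holds a linear intensity with a median near 25 on each array, on a line with the scanner values, so it is blank-subtracted and scaled. How the gains were merged, and the names of the authors' tools, are not given in the sources used here.

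The column headed as background followed the spot itself and was not subtracted, a departure from what was planned. The spot intensities were corrected by normexp (offset 50, control spots included), taken to log2 and quantile normalised. Probes above the 95th percentile of the blank spots on at least 4 of 8 arrays and without a bad spot mark were tested, 21150 of 23473, with lmFit and eBayes of limma 3.58.1 in R 4.3.3. The SE is limma's moderated one, and Benjamini-Hochberg adjustment ran over all probes tested. The small number of arrays limits the precision.

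The members and lists were chosen with earlier results of these data known. Every member could be named. Arrays are listed in full for Cacna1g, for members past the threshold, for 8 index members (Hspa1a, Hspa1b, Hspa8, Hsp90aa1, Hspa5, Hsp90b1, Xbp1, Hsf1) where measured, and for the 2 members of smallest p in each of 7 roles. Of the wider pathway, genes past the threshold and the 3 of smallest p are named; Dnajc10 and Erlec1 were named after their values were seen. Samples with the same replicate number did not deviate together (correlations of -0.115 to 0.0109), so no block was used. Alternatives changed the background correction, the scaling, the filter, the choice of probes, the batch terms and the arrays included. No protein sequences were used here.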

Additional observations from a re-analysis of the deposited data

Results flagged for a closer look

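Within the 68 groups of 4 arrays that the 34 members give, 9 values stood far from the other 3 arrays of their group by Dixon's criterion, which chance meets in about 1 group in 20. WT2 gave 6 of the 9, all of them high. On WT2 Hspa8 was 14.25 against 13.15 to 13.22 on the other WT arrays, Hsp90aa1 was 13.77 against 13.47 to 13.51, and Hspa5 was 11.86 against 11.19 to 11.23. Hsp90b1 was 11.26 there against 10.87 to 10.91, Pdia4 was 7.45 against 7.25 to 7.27, and Herpud1 was 8.22 against 7.90 to 7.94. These 6 genes include the housekeeping Hsp70 and both Hsp90 genes measured among the members, and thus both the cytosol and the ER.

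KO1 gave 2 values, and they pointed in opposite directions. Hsp90aa1 was 13.51 on KO1 against 13.87 to 13.88 on the other KO arrays, and Hspa8 was 13.50 against 13.32 to 13.35. Dnajb4 was 9.23 on KO2, with the other KO arrays at 9.41.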

How the results depend on the processing

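Of 450 values of 18 single genes (Cacna1g and the 17 members listed by array) under 25 alternatives, 432 kept their direction and their side of the threshold, none lost a call, 1 gained one and 17 turned sign. The call gained was Sdf2l1 under 75th percentile scaling (-0.47, limma adjusted p = 0.0274), which made 1 member called lower; over all alternatives its difference ran from -0.678 to -0.378 and its adjusted p from 0.0274 to 0.751. The probes called numbered 61 (42 higher, 19 lower), 110 under 75th percentile scaling (62 higher, 48 lower), 40 in the deposited table, 23 with the gain set as a block, 7 within the 6 lower chip numbers, 0 within either gain set, 17 without KO2 and KO3, and 16 to 49 leaving out 1 array (16 without WT4, 26 without WT3, 29 without KO2, 33 without KO3, 34 without KO4, 37 without WT1). The within-set values and those without KO2 and KO3 were chosen after seeing the data. Each array was left out in turn, but WT2 and KO2 were singled out after their values were seen. With the replicate number as a block 8 probes were called, and no member. Turned signs were Hsf2 at 0.0298 (75th percentile scaling); Hspa8 at 0.0544 and Hspe1 at 0.0072 (gain block); Cacna1g at 0.00582, Hsp90aa1 at -0.0808, Hsp90b1 at 0.0196, Hspa4 at -0.0802, Hsf2 at 0.0192, Hspe1 at 0.0779, Pdia4 at 0.0552 and Herpud1 at -0.0351 (steeper slope); and Hspa1a at 0.027, Hspa8 at 0.153 and Hspd1 at 0.0524 (shallower slope). Leaving out 1 array, Hspe1 ran from -0.0878 to 0.00518 and turned without WT1, and Hspa8 ran from -0.173 to 0.192 and Hspd1 from -0.0838 to 0.0457, both turning without WT2. The causes were not tested. The ER median stayed below 0, from -0.207 to -0.0578, and the cytosolic median ran from -0.0805 to 0.11. Signal near background limits Hyou1 and Hsf2.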

Other observations

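The cold-inducible RNA-binding protein Cirbp, which answers temperature in the direction opposite to the heat shock genes, was named here after its values were seen. It lay from 8.94 to 9.005 on the 4 WT arrays and read 9.01, 9.07, 9.77 and 9.47 on KO1 to KO4. KO3 and KO4, the arrays on which the cytosolic members stood above the ER members, were the high ones, and KO1 and KO2 lay close to WT. Every KO array lay above every WT array, as for 2.42% of all probes. The difference was 0.35 (SE 0.156), with a limma adjusted p of 0.638. The cause of this difference, and any tie to the cytosolic and ER members, was not tested. Rbm3, the other cold-inducible gene listed, was 6.27 ± 0.0669 in WT and 6.28 ± 0.0576 in KO (SD, n = 4 each), and it was dim.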
